A study of Mus musculus with 4 samples.

Results

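The Cd8 locus is the stretch of mouse chromosome 6 that holds Cd8b1 and Cd8a, the genes of the CD8 beta and alpha chains. ATAC-seq peaks were taken as members when their midpoint lay inside either gene, between the genes or within 60 kb outside them, in the window 71262788 to 71439171 of mm10 (176.4 kb). The 4 deposited peak lists held 53 such peaks of 182009 on chromosomes 1 to 19, X and Y. Merged over lists wherever they shared at least 1 bp, they formed 27 of 107621 regions. ATAC-seq uses a transposase that inserts sequencing adapters into open DNA, so a peak marks accessible chromatin. All 4 samples were sorted ex vivo from the thymus of wild-type mice, strain C57BL/6J, at an age of 5 to 7 weeks. In 2 of them, DN 1 and DN 2, the cells were double-negative thymocytes, without CD4 and CD8 at the surface, with CD25 and with or without CD44. The other 2, DP 1 and DP 2, were double-positive thymocytes, which carry both CD4 and CD8. Surface CD8 was thus part of the sort that separates the groups. No label ties a sample to an animal, so the 2 samples of a group may differ by technical spread alone.

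CD8 is the coreceptor of T cells that recognise MHC class I. It brings the kinase Lck to the T cell receptor, as an alpha-beta heterodimer on thymocytes and most cytotoxic T cells, or as an alpha-alpha homodimer on some intestinal T cells and dendritic cells. Thymocytes switch the locus on when they pass from the DN to the DP stage, and shut it again if they choose the CD4 lineage. Several enhancers within and around the gene pair, known as E8I to E8V, drive expression in overlapping windows of development: E8III is known for activity in DP cells and E8I for mature CD8 T cells. The files name no enhancer, and no peak was assigned to one here.

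The Cd8a promoter is shown beside those of Krcc1 and Rmnd5a, the lowest and highest protein-coding genes that lie in or touch the window. They were picked because the merged region at Cd8a was in the DP lists alone and those at the latter pair were in all 4 lists. Sequences are the 250 bases before each start in RefSeq (GRCm38.p6, the same build as mm10), 5′ to 3′ on the gene's strand, with each CG pair in capitals. Cd8a is on the plus strand (chr6:71373177-71373426), as is Krcc1 (chr6:71271769-71272018), and Rmnd5a is on the minus strand (chr6:71440638-71440887). The Krcc1 stretch lies before a start at 71272019, past the start of its gene span at 71271677. The merged region at Krcc1 ends at 71271950, before that promoter's start. Its DN 2 peak ends at 71271700 and does not reach the printed stretch.
Cd8a: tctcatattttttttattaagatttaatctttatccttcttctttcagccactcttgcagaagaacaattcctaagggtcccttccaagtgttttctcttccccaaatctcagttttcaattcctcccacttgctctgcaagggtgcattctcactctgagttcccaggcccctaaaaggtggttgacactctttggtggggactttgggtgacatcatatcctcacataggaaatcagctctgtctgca
Krcc1: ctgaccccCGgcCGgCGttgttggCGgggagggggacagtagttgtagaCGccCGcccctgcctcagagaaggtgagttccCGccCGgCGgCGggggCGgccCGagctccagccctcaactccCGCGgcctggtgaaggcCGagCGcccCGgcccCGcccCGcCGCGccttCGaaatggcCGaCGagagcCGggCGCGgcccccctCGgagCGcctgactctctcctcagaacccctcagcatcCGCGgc
Rmnd5a: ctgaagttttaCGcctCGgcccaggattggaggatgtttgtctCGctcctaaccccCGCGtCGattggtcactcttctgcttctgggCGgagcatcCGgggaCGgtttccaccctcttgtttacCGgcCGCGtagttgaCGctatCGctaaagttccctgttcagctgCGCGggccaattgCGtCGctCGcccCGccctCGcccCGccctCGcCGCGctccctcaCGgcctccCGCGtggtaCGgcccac
The Cd8a stretch held 0 CG pairs and 42.8% G and C. Krcc1 held 31 CG pairs at 75.2%, and Rmnd5a 29 at 64.8%. Not all neighbours were so rich in CG pairs or overlapped by a region. The promoter of Gm1070, inside the window, held 8 CG pairs at 50%. That of Smyd1, whose start lies just below the window, held 2 at 51.6%. No region of any list overlapped either of them. Across the 32851 promoters of the table, the 2267 overlapped by DP-only regions (held by both DP lists and neither DN list) had a median of 18 CG pairs, close to the 17 of the 5069 promoters overlapped by regions in all 4 lists. The 20554 promoters that no region overlapped had a median of 3. Of the 2267 DP-only promoters 6 (0.265%) had no CG pair, so the Cd8a promoter lay at the poor end of its own class. The table gives no promoter for Cd8b1. Motif letters were searched on both strands of the 300 bases around the Cd8a start, down to 50 bases past it. The RUNX motif TGTGGT had 0 matches, while 16.8% of the 32851 promoters held it. The ETS motif CAGGAAG also had 0 matches (13.3% of promoters), as did the GATA motif AGATAA (11.2%) and the TCF and LEF motif CTTTGA (16.0%). The E box CAGCTG, which 16.3% of promoters held, had 1 match whose first base lay 2 bases before the Cd8a start, so that it spans the start. This was the only match of the motifs searched, so no overlap between matches could arise.

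In the DP lists the gene pair held many peaks, and in the DN lists almost none. DN 1 had 1 peak in the window and DN 2 had 3, against 25 in DP 1 and 24 in DP 2. The mean was 24.5 ± 0.707 (SD, n = 2) in DP and 2 ± 1.41 in DN lists, and the groups did not overlap. Peaks of a list can overlap each other, so these numbers and their SD count calls, not separate sites. DP 1 had 3 overlapping peaks at 71324801 to 71325700, where DP 2 had 1. It had 2 each at 71302051 to 71302900, 71353451 to 71354250 and 71409651 to 71410100. DP 2 had 2 at 71268851 to 71269350. Bases shared by such peaks were counted once. Peaks covered 600 and 1300 bp of the window in DN 1 and DN 2, and 12500 and 14250 bp in DP 1 and DP 2, which is 0.34, 0.737, 7.09 and 8.08% of it. List length differs between samples: the lists held 38801, 33123, 39709 and 70376 peaks in the order DN 1, DN 2, DP 1, DP 2. Thus the groups did not overlap in list length either, nor in the bases covered by whole lists (17.0, 13.2, 19.0 and 30.3 Mb). In how many other gene windows the groups separate was not counted. Per 10000 peaks of the list the window held 0.258 and 0.906 in DN and 6.30 and 3.41 in DP lists, still without overlap. The differences of the means, DP minus DN, were 22.5 peaks, 4.27 peaks per 10000 and 12425 bp. Each had an exact two-sided permutation p of 0.333, the smallest that 2 against 2 lists allow, so no difference could pass 0.05. The lists carry no read counts. Depth is therefore unknown, and a closed site and an undersampled one look the same in a list.

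**Figure D1:**
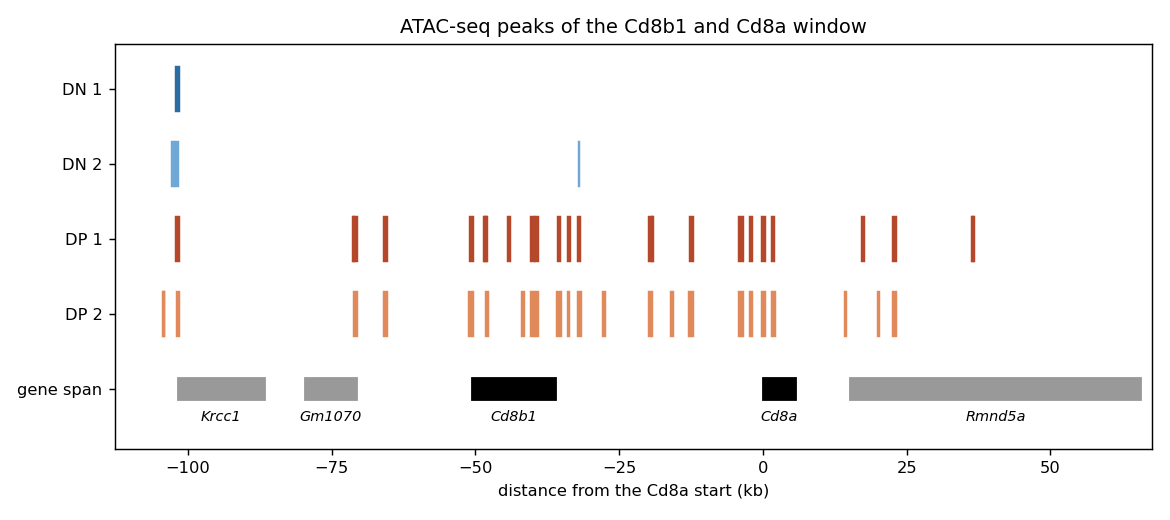
Peaks of each list (coloured boxes, to scale) and protein-coding gene spans (black for Cd8b1 and Cd8a, grey for neighbours) against the distance from the Cd8a start in kb. DN 1 and DN 2 hold 1 and 3 peaks, and DP 1 and DP 2 hold 25 and 24, most of them from the Cd8b1 start to the Cd8a end.

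By class, 15 of the 27 regions were DP-only and 0 were DN-only (the opposite case). Over the genome 7.44% of the merged regions were DP-only and 2.51% DN-only. The genome count of DP-only regions, 8006, rests on single lists more than the window's: it was 44383 without DP 1, 19337 without DP 2 and 13269 without DN 1, where the window had 21, 18 and 15. Of the other 12 regions, 1 was in all 4 lists, 1 in DN 2 and both DP lists, and 10 in a single list (6 in DP 2, 3 in DP 1 and 1 in DN 2). Over the genome 7.39% of regions were in all 4 lists and 71.8% in a single list. Among the regions held by at least 2 lists, 15 of 17 (88.2%) in the window were DP-only, against 26.4% over the genome. The rule that chose the window used no measured value, but the gene pair was proposed with earlier results of these data known. The 15 sites stretched over 94.5 kb, from 71302051 to 71396550, with a median gap of 3825 bp between neighbours. From the Cd8b1 start to the Cd8a end, 56.4 kb, there were 11 of them, or 19.5 per 100 kb. In the stretches from 60 to 500 kb on both sides there were 10 in 880 kb, or 1.14 per 100 kb.

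**Figure D2:**
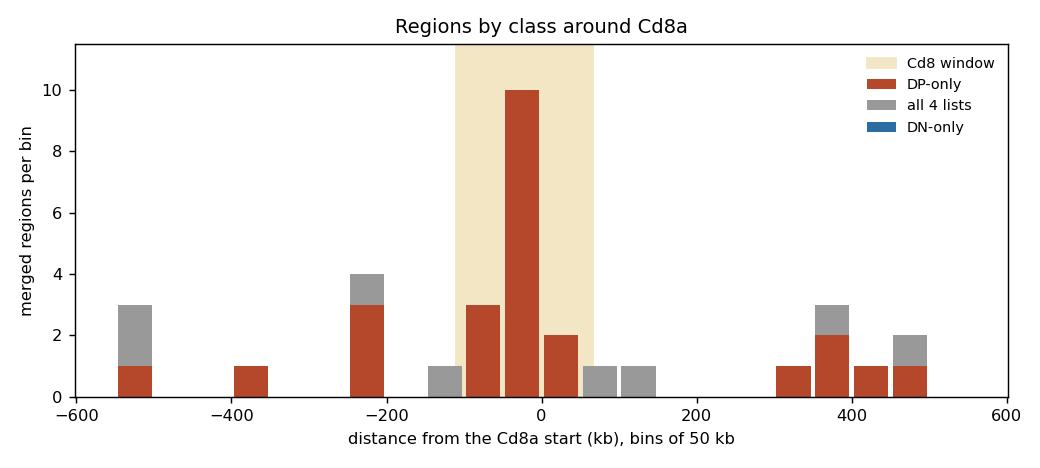
Merged regions per 50 kb bin against the distance from the Cd8a start in kb, stacked by class, with the Cd8 window shaded. The bin just below the Cd8a start holds 10 DP-only regions, no other bin holds more than 3 of them, and no bin holds a DN-only region.

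Both gene starts had peaks in the DP lists alone. The region over the Cd8a start (71373051 to 71373750) was held by DP 1 and DP 2. To set its strength, peaks were ranked by the authors' p-value, and the rank given here is the percent of the list's peaks with an equal or lower p, so that a small rank is a strong peak. A region with several peaks of a list takes the best of their ranks. The Cd8a start ranked at 7.13% in DP 1 and 10.8% in DP 2. The region over the Cd8b1 start (71322201 to 71323050), which also touches the end of the non-coding gene Gm38828, ranked at 14.9 and 13.5%. By midpoint these regions fall just outside the gene spans, and are counted between the genes and in the flank below Cd8b1. In DN 1 no peak lay within a stretch of 168.5 kb that contains both genes. DN 2 had 69.5 kb free of peaks around the Cd8b1 start and 98.95 kb around the Cd8a start.

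In both DP lists the strongest peak of the locus lay just before Cd8a. A region centred 3.88 kb before its start (71369101 to 71370000) had the authors' lowest p of 1e-12 in both DP lists, with ranks of 6.38 and 4.44%. Its neighbour, 2.18 kb before the start (71370951 to 71371550), ranked at 25.6% in DP 1 and 4.82% in DP 2. Another region, within Cd8a and 1.70 kb past the start (71374801 to 71375450), ranked at 49.1 and 10.5%. With the region over the start, 4 DP-only regions thus lay side by side. Farther into the space between the genes, DP-only regions were centred 12.7 kb (71360351 to 71361200; ranks 13.0 and 7.79%) and 19.6 kb (71353451 to 71354250; 24.6 and 14.4%) before Cd8a. The former was thus among the stronger sites in both lists.

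Within Cd8b1, the beta chain gene, DP-only sites numbered 20.4 per 100 kb, against 19.5 between the genes, and none of them ranked within the best 25% of DP 1. Its span held 3 DP-only regions, centred 2.46, 10.5 and 11.2 kb past the start. The first of these ranked at 49.1 and 44.5%, the weakest of all 15 sites in DP 2. The other two, at 71332951 to 71333550 and 71333701 to 71334300, lay 150 bp apart and ranked at 27.1 and 32.0% in DP 1 and 17.4 and 23.2% in DP 2. Past the gene, DP-only regions at 71337501 to 71338250 and 71339301 to 71339850 ranked at 32.0 and 35.5% in DP 1, and at 8.57 and 35.7% in DP 2. The first of these touched neither gene span and lay 383.5 bp from the Cd8b1 end by its midpoint.

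The exception inside the gene pair was a region 18.6 kb past the Cd8b1 start (71341051 to 71341750). DP 1 and DP 2 held it at ranks of 29.7 and 13.5%, and DN 2 also had a peak there. The DN 2 peak (71341201 to 71341500) was 300 bp wide, the narrowest width in the lists, and its p equalled the list's largest, which 44.2% of DN 2 peaks share. DN 1 had no peak at this site. In the 2 DN lists it was the only peak between the regions over the Krcc1 and Rmnd5a starts.

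Outside the pair, DP-only regions reached both flanks. Below Cd8b1, a region 20.3 kb before its start (71302051 to 71302900) overlapped the end of Gm1070, a predicted protein-coding gene, and ranked at 15.7% in DP 1 and 5.75% in DP 2. A second, 15.1 kb before the start (71307351 to 71308100), ranked at 22.4 and 20.6%. Beyond Cd8a the sole DP-only region (71395801 to 71396550) was 22.7 kb past its start and inside Rmnd5a, a gene for a subunit of a ubiquitin ligase. With ranks of 9.43 and 8.10% it was 1 of 2 sites within the best 10% of both lists. The other was the one 3.88 kb before Cd8a. Without DP 1, or without DP 2, the far flank counted 3 in place of 1, since a single list then stood for the group.

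**Figure D3:**
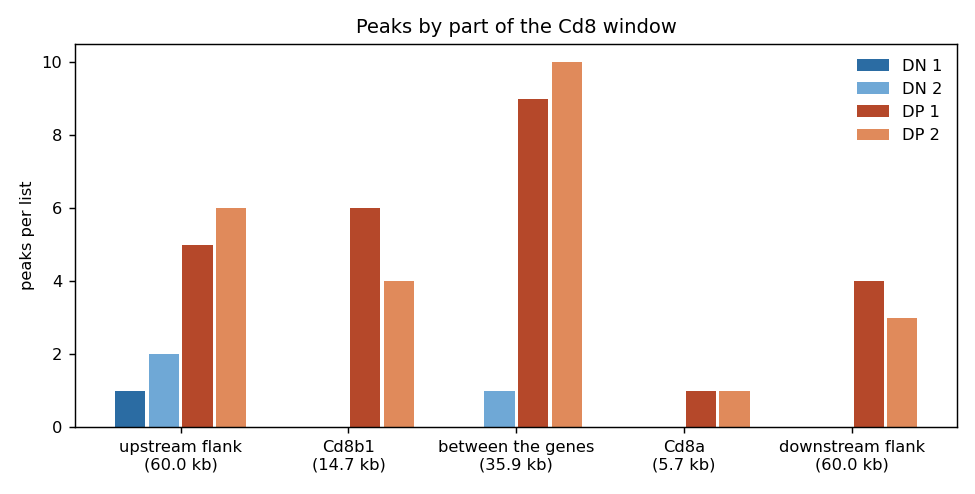
Peaks of each list (bars) in the 5 parts of the window, by peak midpoint, with the length of each part in kb. DN lists have bars of 1 and 2 in the upstream flank and a bar of 1 between the genes, and both DP lists have peaks in every part.

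At both edges of the window the DN lists held peaks too. The region over the start of the Krcc1 gene span (71271201 to 71271950, overlapping Mir8112) was held by all 4 lists. It ranked at 11.3, 27.4, 24.6 and 26.9% in the order DN 1, DN 2, DP 1, DP 2. DN 1 thus ranked it higher than either DP list. The peak next outside the rule, over the Rmnd5a start and 1.53 to 1.63 kb past the window's edge, was also in all 4 lists. It ranked at 3.54, 5.29, 6.38 and 4.44%, and its p was 1e-12 in 3 lists and 5.68e-06 in DN 2. On the other side the nearest outside peaks lay 95.8 to 98.4 kb below the window. A lone DN 2 region (71270551 to 71271050; rank 21.5%) lay just below the Krcc1 start and was not held by DN 1.

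The 15 DP-only sites were alike in position and unlike in strength. By the best peak of each site, their ranks ran from 6.38 to 49.1% in DP 1 and from 4.44 to 44.5% in DP 2. By that measure all 15 were in the better 50% of both lists, and 8 were within the best 25% of both. The DP 1 peaks at 71324801 to 71325700 ranked at 49.1, 70.9 and 100%. The sites at 71302051 to 71302900 and 71353451 to 71354250 also each held a DP 1 peak at 100%. Their median rank was 24.6% in DP 1 and 10.8% in DP 2, against 43.3 and 26.9% for the 8006 DP-only regions of the genome. Ranks in the 2 lists went together with Spearman's rho of 0.581 over the 15 sites, a description only, since the sites share both libraries. Midpoints in DP 1 and DP 2 differed by a median of 25 bp and at most 275 bp, against a genome median of 50 bp, on a grid of 50 bp. The merged sites were 550 to 900 bp wide with a median of 750 bp, against 600 bp over the genome. By midpoint 4 of the 15 (26.7%) lay within 1000 bp of an end of a protein-coding gene, and the genome share was 26.4%.

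**Figure D4:**
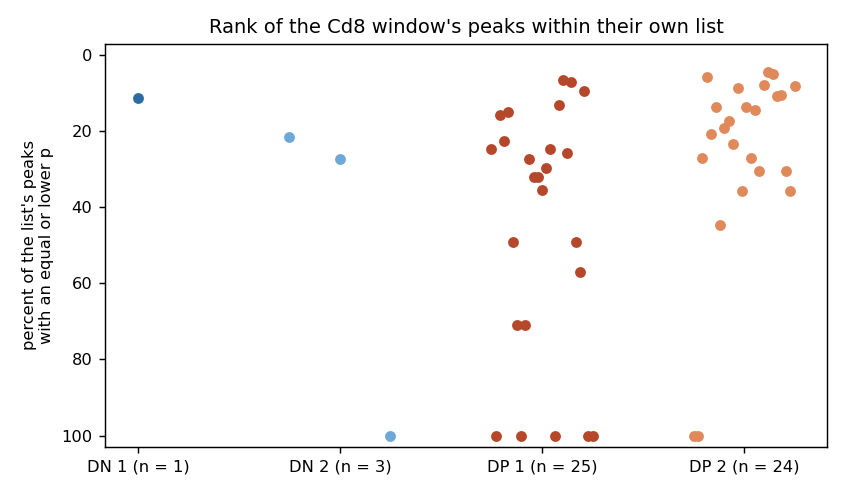
Rank of every member peak within its own list, as the percent of the list's peaks with an equal or lower authors' p (axis reversed, strong peaks at the top; points of a list in order of position). In DP 1 5 of 25 peaks and in DP 2 2 of 24 share the list's largest p, and in both the strongest peaks lie in the best 10%.

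Regions found in DP 1 or DP 2 alone all ranked below the median DP-only site of the window in their list. The 3 found in DP 1 alone ranked at 57.1, 70.9 and 100%. In DP 2, the longest list, 1 of the 6 ranked at 100% and the other 5 at 19.2, 26.9, 30.5, 30.5 and 35.7%. These 5 included a site 15.9 kb before Cd8a (71357301 to 71357800; rank 30.5%) and a site 27.8 kb before it (71345401 to 71345900; 26.9%). Both lie between the genes and have no counterpart in DP 1.

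Few genes had as many DP-only regions nearby. Counted in the span of each of 21887 protein-coding genes widened by 60 kb, Cd8b1 had 15 and Cd8a 13, and the median gene had 0. Of all genes, 2 (0.00914%) had at least as many as Cd8b1, which are Cd8b1 itself and Gse1 with 16 in a window of 473 kb, against 135 kb for Cd8b1. As many as Cd8a had 3 genes (0.0137%). Windows of neighbours overlap and differ in length, so this is a description. It moved with the lists. At least as many as Cd8b1 had 1 gene, Cd8b1 itself, with each list cut to its top 50% or to the shortest length, 4 genes without DN 1, 13 without DP 2, 147 without DP 1 and 5 with flanks of 100 kb.

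**Figure D5:**
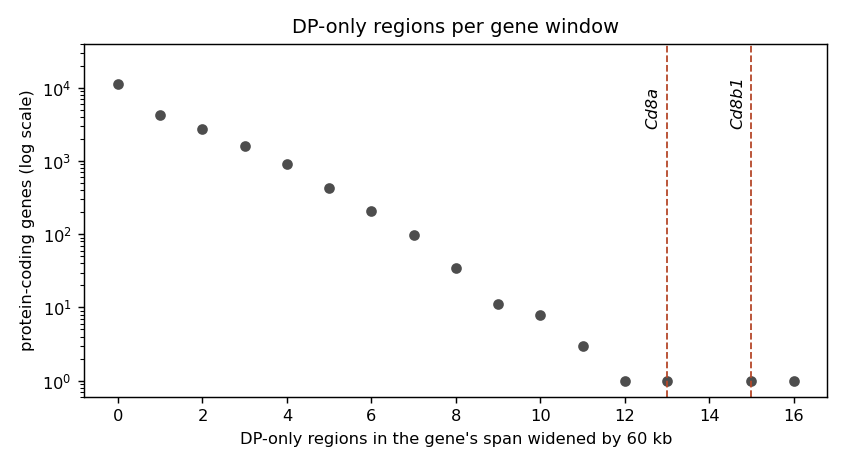
Number of protein-coding genes (log axis) by the count of DP-only regions in their span widened by 60 kb (points); dashed lines mark Cd8a at 13 and Cd8b1 at 15. Most genes have 0 or 1, and only Gse1, at 16, lies beyond Cd8b1.

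By the same window rule, other T cell loci had fewer DP-only regions and more DN peaks or fewer DP peaks. Cd4, the other coreceptor, had 4 DP-only regions and 4 in all lists, with 13, 6, 22 and 21 peaks in DN 1, DN 2, DP 1 and DP 2. The CD3 chain genes Cd3e, Cd3d and Cd3g, whose products signal for the T cell receptor, had 4 DP-only and 0 shared regions with 1, 1, 13 and 9 peaks. Rag1 and Rag2, the recombinase genes, had 3 DP-only and 4 shared regions with 5, 5, 11 and 17 peaks. DP minus DN was 12, 10 and 9 peaks for these loci (exact permutation p = 0.333 each), against 22.5 for Cd8. DP-only regions of the Cd8 locus numbered 15 to 21 when each list was left out in turn, those of Cd4 up to 9 (without DP 1; 7 without DN 1 or DP 2), of the CD3 genes up to 8 (without DP 1 or DP 2) and of Rag1 and Rag2 up to 11 (without DP 1). Rag1 and Rag2 had 1 in the top 50% of each list and 5 with 100 kb flanks. Whether the loci differ in their DP minus DN difference was not tested.

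The genes whose windows were most like the Cd8 window in the 4 lists, by Euclidean distance of log2(peaks per 10000 + 1) among 21879 genes, were Glb1 (0.544), Sox6 (0.742), Galnt2 (0.815), Ctc1 (0.83) and Serpina3b (0.84). Glb1, a lysosomal galactosidase, had 2, 3, 18 and 19 peaks in DN 1, DN 2, DP 1 and DP 2 with 9 DP-only regions. Serpina3b had 1, 1, 15 and 28 peaks, but only 1 DP-only region, so a like number of peaks did not mean the same sites in both DP lists. The Sox6 window spans 689.9 kb and had 2 DP-only regions. Galnt2 had 8 of them and Ctc1 had 5.

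Regions over the whole genome were assigned to protein-coding genes by the closest gene end, up to 100 kb away. Genes whose DP-only regions outnumber their DN-only regions are said to lean DP. Of the regulators known to act on the Cd8 genes, 17 of 24 leaned DP and 0 leaned DN, against 21.5 and 5.51% of all genes. Their median was 1.5 DP-only regions, against 0 for all genes. Other lists of thymocyte genes leaned the same way, and some of them share members with the regulators. Of the CD25-positive DN stage 5 of 7 genes leaned DP, with a median of 2. So did 6 of 7 pan-T genes and 9 of 10 DP-stage genes, Cd8a and Cd8b1 included, and 0 of these lists leaned DN. Markers of other cell types also leaned DP: 2 of 6 for B cells, 2 of 7 for dendritic cells and 2 of 4 for stromal cells, with 0 leaning DN. Of 5 myeloid markers 1 leaned DP and 0 DN, and of 5 NK and innate lymphoid markers 1 leaned DP and 2 DN. The background also moved with the lists. DP-leaning genes numbered 4707 of 21887 with all lists, 10208 without DP 1 and 7315 without DP 2, while the regulators numbered 21 of 24 in both cases. Satb1, a chromatin organiser, had 7. Runx1 and Bcl11b, transcription factors known to act on the locus, had 5 each, and Runx3, which represses Cd4 and sustains Cd8 in cytotoxic cells, had 4. Lef1 also had 5, and Ikzf1 and Ets1 had 4 each. Gata3, Cbfb, Runx2, Tcf12, Il7r and Kmt2a had 0 DP-only regions. Of the partners of the coreceptor, 10 of 15 leaned DP and 0 DN, with a median of 1. Ptprc, the phosphatase CD45 that activates Lck, had 5, Zap70 had 2 and Lck itself 1, while B2m and H2-K1, parts of the MHC class I ligand, had 0. The lists are not separate sets of genes. Bcl11b and Tcf7 count as regulators and as pan-T genes, and Il7r as a regulator and a DN-stage gene. Lck, Cd3e, Cd3d and Cd3g count as pan-T genes and as partners, and Cd4 and Themis as DP-stage genes and as partners. Genes on these lists were chosen with earlier results of these data known, and the lists were not tested.

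The labels were set against marker genes by counting those with a peak within 1000 bp of a gene end, in the order DN 1, DN 2, DP 1, DP 2. Over all genes the share was 37.9, 26.7, 47.4 and 50.6%. Of 10 genes of the DP stage, Cd8a and Cd8b1 included, 4, 4, 9 and 9 had such a peak, of 7 pan-T genes 1, 2, 6 and 7, and of 7 genes of the CD25-positive DN stage 5, 2, 3 and 5. Il2ra, the gene of CD25 that defines the DN sort, had one in DN 1 and DP 2 but not in DN 2 or DP 1. Some dendritic cells also carry CD8 alpha. Of 7 dendritic cell markers 3, 4, 4 and 3 had a peak, and Itgax and Zbtb46 had none in any list. The counts were 1, 1, 1 and 3 of 6 for B cells, 2, 1, 1 and 2 of 5 for NK and innate lymphoid cells, 0, 0, 1 and 0 of 5 for myeloid and the same of 4 for stromal markers. The part of other cell types in the peaks of the locus was not tested.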

How the data were processed

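ATAC-seq peak lists of 4 samples were used, 1 list per sample, with groups and replicate numbers from the sample titles. Each deposited list gives per peak the position and the authors' p-value. It took 24 to 39 distinct values per list, from 1e-12 up, with 29.1 to 44.2% of peaks tied at the largest, and served only to rank peaks within a list. Per the submitters' processing notes the build is mm10 and the tools are Bowtie2 and Picard. PeakDEck is named in the list names. Its settings, the read filters and any insertion-site shift were not given in the sources used here.

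Peaks were merged over lists at 1 bp of overlap. Coordinates count from 1. Genes came from RefSeq (GRCm38.p6). No genome sequence was used, so motifs were searched in the promoter alone. Single values were compared with exact permutation tests over samples. Named are the 2 members, genes in the window, 3 comparison loci, the 5 genes of most like pattern and leading list members. Members, lists and tests were chosen with earlier results of these data known. Merging and classes were tried on simulated lists that held every region of their class, slightly shifted, with none missed and no false peaks. That checks the code alone, not how the classes fare when lists miss regions. Alternatives are given in the closing section. Computation used pandas 2.3.3 and numpy 2.4.6 under Python 3.11.15, and figures matplotlib 3.10.9.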

Additional observations from a re-analysis of the deposited data

How the results depend on the processing

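The DP minus DN differences in peaks, peaks per 10000 and covered bp kept their direction under all 10 alternatives run for each: the top 50% of each list, lists of the shortest length, flanks of 30 or 100 kb, any overlap with the window, leaving out each list, and the replicate block. Leaving out a list gave 21.5 to 23.5 peaks, 2.83 to 5.71 peaks per 10000 and 11550 to 13300 bp. The other settings gave 18 to 22.5 peaks, 4.11 to 6.55 peaks per 10000 and 11325 to 12500 bp. With the replicate number as a block the differences were 22.5, 4.27 and 12425 with an exact permutation p of 0.5 each, the smallest that 2 pairs allow. The labels do not say that a number is shared, and deviations of same-numbered lists correlated at 0.0207 over presence in merged regions and at 0.302 over log2 peaks per 10000 in gene windows. DP-only regions numbered 14 with merging within 250 bp, 15 under the other settings that keep all lists, and 15 to 21 without each list. DN-only regions numbered 0 to 1 without each list, the 1 being the DN 2 region below Krcc1 without DN 1, and 0 otherwise. A 50% overlap with the widest peak of a region and the alternatives for other loci were chosen after seeing the data. The planned 50% overlap with the region changes nothing by construction and was not run. Unknown depth limits every absence.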
